A study of Homo sapiens with 6 samples.

Results

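Keratins 8 and 18, desmoplakin and the genes grouped with them were examined in SY5Y-TR1 cells, a TAE684-resistant subclone, against parental SH-SY5Y cells. The 10 genes are the simple-epithelium keratins KRT8, KRT18, KRT7 and KRT19, the epidermal keratin KRT10, the desmosomal plaque genes DSP, PKP2 and JUP, the related armadillo gene PKP4 and the cytolinker gene PLEC. They were chosen by name, as keratin filament genes and genes of the plaque to which those filaments attach, out of 19775 genes on the array, with the difference between these same arrays already known for some of them. Their differences are therefore a description, and the number of them that passed the test supports nothing about the group. Both lines are human neuroblastoma (NB) cells with the ALK F1174L mutation, an activating change in the ALK receptor kinase. The paper reported less ALK phosphorylation in the resistant subclones than in the parental cells. SY5Y-TR1 cells came from continuous exposure of SH-SY5Y cells to rising doses of the ALK inhibitor TAE684 and were kept in 1 μM of it, whereas SH-SY5Y cells grew in the same medium with no drug. SY5Y-TR1 is 1 subclone, so its resistance, its clonal origin and the drug in its medium cannot be told apart.

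Total RNA was measured on 3 arrays for each line, and each value is a log2 signal from RMA, which corrects background, normalizes the arrays together and summarizes the probes of a probe set. The labels call the arrays biological replicates and the submitters' design text calls them replicates run of 1 sample for each line, so the p-values measure only the spread between these arrays, which may be technical. Array medians lay between 5.56 and 5.59, replicates correlated at 0.997 to 0.998 over all probe sets and arrays of different lines at 0.959 to 0.960. A gene was read from its brightest probe set, by the mean of the 6 arrays, and was called at an adjusted p under 0.05 (limma, Benjamini-Hochberg over all genes) and a change of at least 2-fold. As a level of background, 5.67, the 90th percentile over 41 genes of unrelated tissues was taken, whose means ran between 2.61 and 6.97, and 4 of them lie above it by construction. With bulk RNA, fewer cells with a transcript and less of it in each cell cannot be told apart.

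Keratin filaments are built from pairs of a type II and a type I keratin. KRT8 (type II) and KRT18 (type I) form the main pair of simple epithelia, and KRT7 and KRT19 are further type II and type I keratins of such cells. At a desmosome the cadherins of the desmoglein and desmocollin families cross the membrane, plakoglobin (JUP) and plakophilins bind their tails, and desmoplakin (DSP) ties this plaque to the filaments. Neuroblasts of the sympathetic lineage mainly carry other filaments, those of vimentin and the neurofilament proteins.

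The start regions of 4 of the genes are shown because their transcripts differed in size or direction of change between the lines, and because the E-box form CAGGTG is the sequence bound by SNAI and ZEB repressors of epithelial genes. Each runs 250 bases before to 50 bases after a gene start in RefSeq, 5′ to 3′ on the strand of the gene, with CAGGTG, read on either strand, in capitals. KRT8 is at chr12:52926420-52926719 on the minus strand, DSP at chr6:7541421-7541720 on the plus strand, JUP at chr17:41785927-41786226 on the minus strand and PKP4 at chr2:158456702-158457001 on the plus strand, all in build GRCh38.p14. JUP and PKP4 have a further RefSeq start whose sequence is not shown. Which starts these cells use was not determined, and KRT8 may have starts outside the window shown, so its counts hold for that window only.
KRT8: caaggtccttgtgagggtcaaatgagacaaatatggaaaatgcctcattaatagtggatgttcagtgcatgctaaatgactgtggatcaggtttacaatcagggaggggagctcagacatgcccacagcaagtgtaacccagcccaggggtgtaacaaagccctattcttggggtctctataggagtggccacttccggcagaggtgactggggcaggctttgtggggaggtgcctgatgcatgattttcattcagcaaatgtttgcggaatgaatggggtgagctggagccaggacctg
DSP: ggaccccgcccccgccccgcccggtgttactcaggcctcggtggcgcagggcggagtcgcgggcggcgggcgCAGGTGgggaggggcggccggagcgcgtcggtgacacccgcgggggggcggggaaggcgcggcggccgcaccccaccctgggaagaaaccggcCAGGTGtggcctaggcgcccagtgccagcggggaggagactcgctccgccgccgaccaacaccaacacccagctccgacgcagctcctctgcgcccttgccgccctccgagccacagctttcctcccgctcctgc
JUP: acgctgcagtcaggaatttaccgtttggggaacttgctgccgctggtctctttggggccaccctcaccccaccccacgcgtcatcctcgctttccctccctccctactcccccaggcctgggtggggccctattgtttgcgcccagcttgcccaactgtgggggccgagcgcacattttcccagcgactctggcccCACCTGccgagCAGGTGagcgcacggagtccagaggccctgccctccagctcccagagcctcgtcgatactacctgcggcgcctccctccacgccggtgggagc
PKP4: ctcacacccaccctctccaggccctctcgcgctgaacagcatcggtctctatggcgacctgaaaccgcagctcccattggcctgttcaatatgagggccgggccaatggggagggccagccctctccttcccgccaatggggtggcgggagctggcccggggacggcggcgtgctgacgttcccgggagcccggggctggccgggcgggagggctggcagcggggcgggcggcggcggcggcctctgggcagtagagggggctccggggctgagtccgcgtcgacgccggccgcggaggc

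The DSP and JUP windows each held 2 matches to CAGGTG, and those of KRT8 and PKP4 held 0. The JUP counts depend on the start used, since the window at its further start held 0 matches to CAGGTG and 3 to the GC box GGGCGG. Of 35116 RefSeq promoters of this length, 20.6% held CAGGTG at least once and 3.49% at least 2 times. CAGGTG is a form of the wider E-box CANNTG, which 68.7% of promoters held and which had 3 matches in KRT8 and 0 in PKP4. The AP-1 motif TGANTCA, present in 7.71% of promoters, had 0 matches in the 4 windows. The GC box, present in 45% of promoters, had 8 matches in DSP, 3 in PKP4 and 0 in the KRT8 and JUP windows shown. At the further PKP4 start the window held 1 match to it. Base composition differed as well, with 77.0% G and C in DSP, 74.0% in PKP4, 66.7% in JUP and 50.7% in KRT8, against a median of 58.7% over all promoters. The matches describe letters and were not tested as binding sites. RefSeq entries were used for 5 of the 10 genes, and KRT18, KRT7, KRT19, PKP2 and PLEC are named only. The KRT10 window, not shown, held 0 matches to CAGGTG and 3 to the wider E-box, with 37.7% G and C.

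Of the 10 genes, 3 were called higher in SY5Y-TR1 cells (KRT8, KRT18 and DSP), 0 were called lower and 7 were not called. Over all genes tested, 5.36% were called higher, 5.99% lower and 11.4% in either direction. By adjusted p alone 8 of the 10 passed, 7 of them higher and 1 lower, where 52.8% of all genes did. The lines did not overlap for 8 of the 10, where 59.8% of all genes did not. The median log2 fold change was 0.45 over the 10 genes and 0.04 over all genes. Just inside the 2-fold limit lay KRT18, with a log2 fold change of 1.18, and just outside it PKP4, at -0.85, and PLEC, at 0.76.

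**Figure D1:**
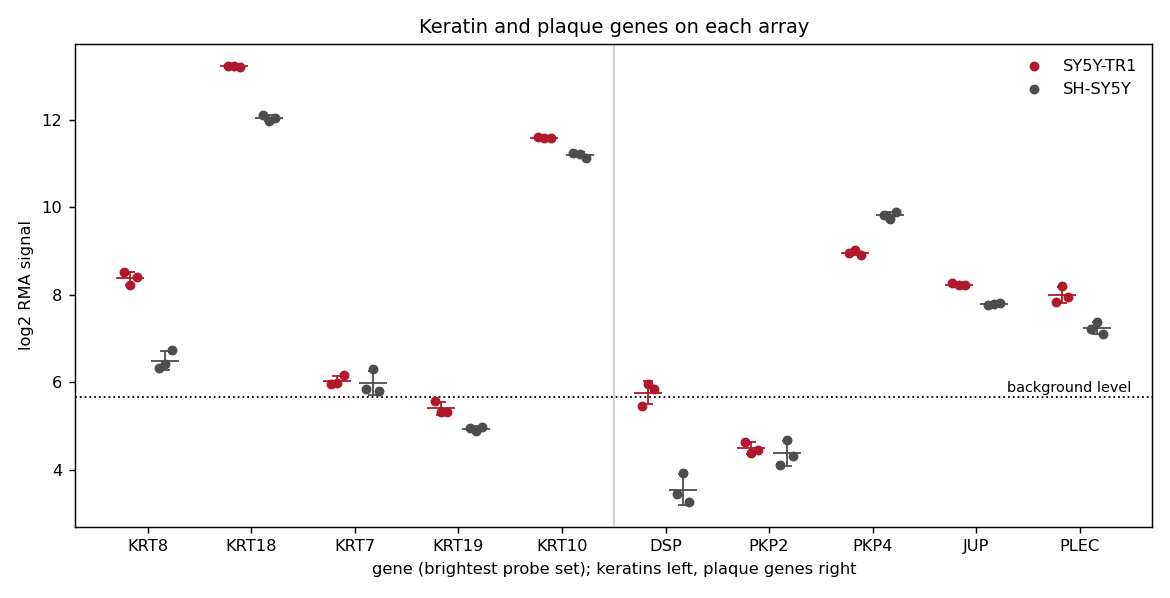
Log2 RMA signal (vertical axis) of the 10 genes on each array, with SY5Y-TR1 in red left of SH-SY5Y in grey, with points as arrays, bars as mean and SD (n = 3), and the dotted line is the background level of 5.67. KRT8, KRT18 and DSP are separated between the lines, KRT7 and PKP2 overlap, and PKP4 is lower in SY5Y-TR1.

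KRT8, the type II keratin of the simple-epithelium pair, had log2 signals of 8.52, 8.23 and 8.40 in SY5Y-TR1 cells, against 6.32, 6.41 and 6.75 in SH-SY5Y cells. Every SY5Y-TR1 array lay above every SH-SY5Y array, and all 6 lay above background. The SH-SY5Y values still lay within the range of the unrelated-tissue genes, whose highest mean was 6.97. Differences are compressed there, so the size of the KRT8 change is uncertain. SY5Y-TR1 averaged 8.38 ± 0.15 and SH-SY5Y averaged 6.49 ± 0.22 (SD, n = 3 each), a log2 fold change of 1.89 (SE 0.12, 95% interval 1.59 to 2.18, limma adjusted p = 1.35e-05), or 3.70-fold. It ranked 366 of 19775 genes counted from the highest log2 fold change.

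KRT18, its type I partner, was at 13.22, 13.23 and 13.21 in SY5Y-TR1 cells, against 12.10, 11.97 and 12.04 in SH-SY5Y cells. The lines did not overlap, although the transcript was already abundant in the parental cells. The log2 fold change was 1.18 (SE 0.05, 95% interval 1.07 to 1.30, limma adjusted p = 1.18e-06), or 2.27-fold higher in SY5Y-TR1, where SY5Y-TR1 averaged 13.22 ± 0.01 and SH-SY5Y 12.04 ± 0.07 (SD, n = 3 each). Both genes moved in the same direction. They were read by different probe sets at different signal levels, so which transcript changed more was not determined. The KRT8 probe set moved by more, with a difference between the log2 fold changes of 0.71 (95% interval 0.25 to 1.16, from a linear model on the per-array differences). An exact two-sided permutation test over the arrays gave p = 0.1, which is the smallest that 3 arrays against 3 allow. It was 1 of 4 such differences computed, all on pairs picked after their values were seen, and each gave an exact permutation p = 0.1, also after Benjamini-Hochberg adjustment. The other 3 (DSP with JUP, PKP2 with PKP4 and KRT8 with KRT19) each involve a gene with no array above background in at least 1 line, so no size is given for them.

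The KRT8 and KRT18 transcripts were each read by a single probe set of the type that can share sequence with other transcripts. RefSeq lists 52 pseudogenes named after KRT8 and 68 after KRT18, and the 2 genes overlap by 1006 bases in its gene ranges, so signal from related copies cannot be separated here. Probe sets named for the pseudogene KRT8P12 averaged 6.31 in SY5Y-TR1 and 6.37 in SH-SY5Y for 1 of them, and 5.02 in SY5Y-TR1 and 4.87 in SH-SY5Y for the other. Neither was called.

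KRT7 and KRT19, the other simple-epithelium keratins, were not called. KRT7 was at 5.97, 5.99 and 6.17 in SY5Y-TR1 cells, against 5.86, 6.31 and 5.80 in SH-SY5Y cells. The lines overlapped, and the log2 fold change of 0.05 had a 95% interval of -0.28 to 0.38 (limma adjusted p = 0.785), but the signal lay close to background and within the range of the unrelated-tissue genes, where differences are compressed. Over its 4 probe sets the log2 fold change ran between -0.10 and 0.12. KRT19, a type I keratin that lacks most of the usual tail, was at 5.58, 5.32 and 5.32 in SY5Y-TR1 cells, against 4.97, 4.88 and 4.99 in SH-SY5Y cells. Its lines did not overlap and the log2 fold change was 0.46 (SE 0.08, limma adjusted p = 0.00239), but all 6 arrays were under the background level, so no fold is given. Its other probe set had a log2 fold change of 0.01.

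KRT10, a keratin of the suprabasal epidermis and not of simple epithelia, was at 11.61, 11.58 and 11.59 in SY5Y-TR1 cells, against 11.24, 11.21 and 11.13 in SH-SY5Y cells. The lines did not overlap, and the change was 1.32-fold, a log2 fold change of 0.40 (95% interval 0.29 to 0.50, limma adjusted p = 0.000252). All 3 of its probe sets were higher in SY5Y-TR1, with log2 fold changes between 0.40 and 0.49, and all are of the type that can share sequence with other transcripts.

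DSP, which encodes the plakin that links the desmosomal plaque to keratin filaments, had the largest log2 fold change of the 10 genes. It was at 5.47, 5.97 and 5.84 in SY5Y-TR1 cells, against 3.45, 3.94 and 3.26 in SH-SY5Y cells. The lines were well apart, but only 2 of 3 SY5Y-TR1 arrays and 0 of 3 SH-SY5Y arrays lay above background. The fitted log2 fold change was 2.21 (SE 0.20, 95% interval 1.75 to 2.68, limma adjusted p = 6.4e-05), where SY5Y-TR1 averaged 5.76 ± 0.26 and SH-SY5Y 3.55 ± 0.35 (SD, n = 3 each). Against the background level the DSP signal was at least 1.07-fold higher in SY5Y-TR1. With values under background raised to it, the log2 fold change fell to 0.16 and was no longer called (limma adjusted p = 0.236), and 3 genes of the unrelated tissues had means above that of DSP in SY5Y-TR1.

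JUP, encoding plakoglobin, which sits in desmosomes and adherens junctions alike, was at 8.26, 8.22 and 8.21 in SY5Y-TR1 cells, against 7.77, 7.78 and 7.82 in SH-SY5Y cells. The lines did not overlap, and the log2 fold change was 0.44 (SE 0.04, 95% interval 0.34 to 0.54, limma adjusted p = 8.12e-05), a 1.36-fold difference that did not reach the 2-fold limit.

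The plakophilin relatives were each read by several probe sets. PKP4, an armadillo protein found largely at adherens junctions, was at 8.95, 9.01 and 8.92 in SY5Y-TR1 cells, against 9.82, 9.73 and 9.89 in SH-SY5Y cells. Every SY5Y-TR1 array was under every SH-SY5Y array, and PKP4 fell by 0.85 on the log2 scale (SE 0.06, limma adjusted p = 1.33e-05), or 1.81-fold, short of the 2-fold limit. All 5 PKP4 probe sets were lower in SY5Y-TR1 without overlap, with log2 fold changes between -0.85 and -0.35. Over all 54613 probe sets, the lines did not overlap for 27439. The smallest PKP4 changes, -0.46 and -0.35, came from its dimmest probe sets. The one at -0.46 had 1 SH-SY5Y array and 0 SY5Y-TR1 arrays above background. The one at -0.35 had no array above background in either line, so neither carries a fold.

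PKP2, a desmosomal plakophilin, gave probe sets that disagreed. The brighter was at 4.65, 4.39 and 4.46 in SY5Y-TR1 cells, against 4.12, 4.69 and 4.31 in SH-SY5Y cells. These overlapped, with a log2 fold change of 0.12 (95% interval -0.23 to 0.47, limma adjusted p = 0.54). The other was at 2.83, 3.52 and 3.22 in SY5Y-TR1 cells, against 4.80, 4.86 and 5.35 in SH-SY5Y cells, and was called lower with a log2 fold change of -1.81 (SE 0.20). Every PKP2 value lay under the background level, so neither direction carries a fold.

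PLEC encodes plectin, a cytolinker of intermediate filaments that is best known from hemidesmosomes. It was at 7.83, 8.20 and 7.96 in SY5Y-TR1 cells, against 7.21, 7.38 and 7.11 in SH-SY5Y cells. The lines did not overlap, and the log2 fold change was 0.76 (SE 0.11, 95% interval 0.50 to 1.03, limma adjusted p = 0.000881), a 1.70-fold difference. Its other probe set, under background, had a log2 fold change of 0.70.

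The 10 genes had 22 probe sets in all, of which 3 were called higher, 1 was called lower and 18 were not called. Over all 54613 probe sets, 8.37% were called. No array lay above background for 8 of the 22. The probe sets of KRT10 and of PKP4 moved together, and those of PKP2 did not.

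**Figure D2:**
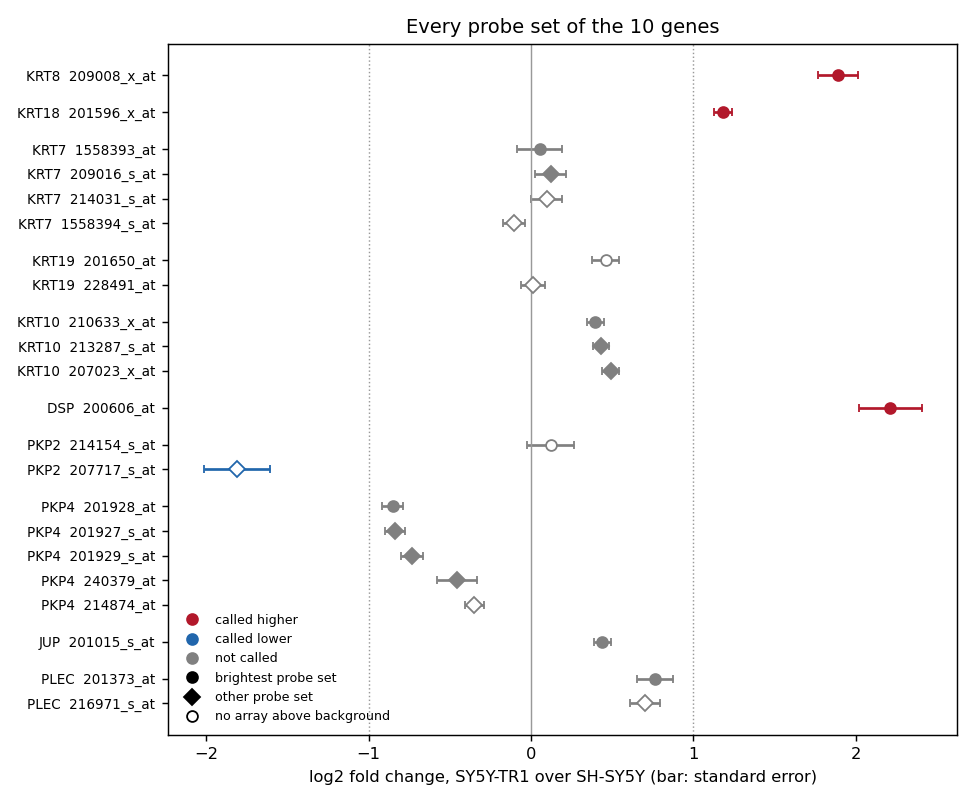
Log2 fold change (SY5Y-TR1 divided by SH-SY5Y) for each of the 22 probe sets of the 10 genes, with the standard error as a bar. Circles are the brightest probe set of a gene, diamonds the others, open symbols have no array above background, and dotted lines mark 2-fold. The 5 PKP4 probe sets all lie left of 0, whereas the 2 PKP2 probe sets lie apart, at 0.12 and -1.81.

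Other keratins were mostly not above background. Of 20 other type I keratins measured, 1 was called higher and 18 had no array above background. KRT15, a keratin of basal epidermal cells, was at 6.51, 6.04 and 6.40 in SY5Y-TR1 cells, against 4.72, 5.20 and 5.15 in SH-SY5Y cells, a log2 fold change of 1.30 (SE 0.16, limma adjusted p = 0.000399) and at least 1.57-fold against background. Of 18 other type II keratins, 1 was called higher and 15 had no array above background. KRT80 was at 8.99, 8.92 and 8.95 in SY5Y-TR1 cells, against 7.93, 7.71 and 8.06 in SH-SY5Y cells, 2.08-fold higher (log2 fold change 1.06, SE 0.09, limma adjusted p = 4.95e-05). No other keratin of these lists was called in either direction, and among genes above background on at least 1 array 16.3% were called. Median log2 fold changes were 0.08 for the type I and 0.05 for the type II list.

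**Figure D3:**
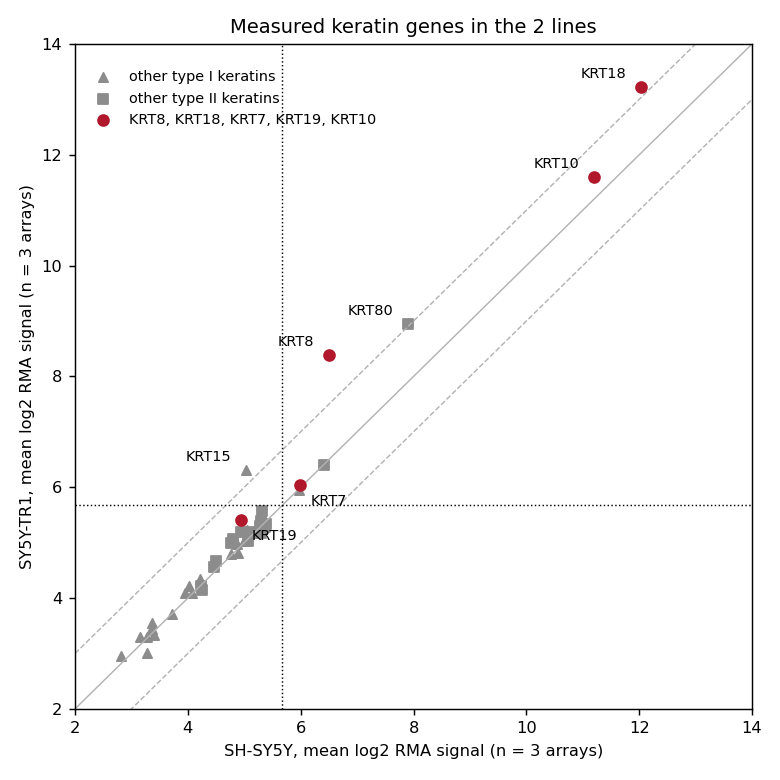
Mean log2 RMA signal of each measured keratin gene in SY5Y-TR1 (vertical axis) against SH-SY5Y (horizontal axis), n = 3 arrays each. Red points are KRT8, KRT18, KRT7, KRT19 and KRT10, triangles and squares the other type I and type II keratins, dashed lines 2-fold and dotted lines the background level. KRT8, KRT18, KRT15 and KRT80 lie above the upper dashed line, and most other keratins lie under background in both lines.

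The other desmosome genes, which include the desmogleins, the desmocollins and PKP3, showed no called change, with 0 of 11 called and 10 of 11 under background on every array. DSG1 to DSG4 and DSC1 to DSC3, the cadherins that carry desmosomal adhesion, were all among those 10. The plakophilin PKP3 averaged 6.68 in SY5Y-TR1 and 6.64 in SH-SY5Y, and DSG3 averaged 5.26 in SY5Y-TR1 and 5.27 in SH-SY5Y. Thus DSP was higher on arrays where no desmosomal cadherin was above background. DSP itself lay near that level, above it on only 2 of 3 SY5Y-TR1 arrays and 0 of 3 SH-SY5Y arrays.

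Among 5 other plakins 0 were called, and their median log2 fold change was 0.28. MACF1, a linker of actin and microtubules, averaged 10.48 in SY5Y-TR1 and 10.17 in SH-SY5Y, and DST, another such linker, averaged 10.46 in SY5Y-TR1 and 10.18 in SH-SY5Y. Of 4 hemidesmosome genes measured 0 were called, with a median of 0.71. ITGA6, the integrin alpha chain of hemidesmosomes, averaged 11.03 ± 0.07 in SY5Y-TR1 cells, against 10.05 ± 0.14 in SH-SY5Y cells (SD, n = 3 each), a log2 fold change of 0.98 just under the limit, and its other probe set was called at 1.20. CD151, a tetraspanin partner of that integrin, averaged 9.30 in SY5Y-TR1 and 8.55 in SH-SY5Y.

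Of 9 catenin and adherens junction plaque genes, 1 was called lower. CTNNA2, the neuronal alpha-catenin, was at 4.59, 4.27 and 4.50 in SY5Y-TR1 cells, against 7.75, 7.54 and 7.40 in SH-SY5Y cells, at least 3.72-fold lower (log2 fold change -3.11, limma adjusted p = 6.67e-07). The widely expressed alpha-catenin CTNNA1 averaged 12.09 in SY5Y-TR1 and 11.91 in SH-SY5Y.

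The non-keratin intermediate filament genes changed in both directions, with 3 of 16 called higher, 4 called lower and a median log2 fold change of -0.48. NEFM, the medium neurofilament chain, was at 5.22, 5.21 and 5.33 in SY5Y-TR1 cells, against 10.89, 10.95 and 10.84 in SH-SY5Y cells, at least 37.4-fold lower (limma adjusted p = 4.01e-09), although only 1 of its 2 probe sets was called. NEFL, the light chain, was 6.46-fold lower (limma adjusted p = 2.01e-07) and was called with all 3 of its probe sets, and LMNB1, a nuclear lamin, was 3.87-fold lower (limma adjusted p = 4.53e-06). The heavy chain NEFH was the other gene called lower, with a log2 fold change of -1.21. SYNC, a muscle filament linker, was 4.06-fold higher in SY5Y-TR1 (limma adjusted p = 6.52e-08), and LMNA was 2.08-fold higher (limma adjusted p = 7.07e-07), with 4 of 6 LMNA probe sets called. BFSP1, a lens filament protein, averaged 7.43 in SY5Y-TR1 and 5.60 in SH-SY5Y and was called higher (limma adjusted p = 1.53e-05), but only 1 of 3 SH-SY5Y arrays lay above background, so its size is uncertain. VIM, encoding vimentin, averaged 14.55 in SY5Y-TR1 and 14.28 in SH-SY5Y, close to the top of the signal range of 14.74, and its dimmer probe set was called higher with a log2 fold change of 1.55. All 3 neurofilament genes were thus lower in the line with higher KRT8 and KRT18.

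Epithelial genes outside the filament system were examined next. Of 22 surface and tight junction genes, 0 were called and 11 had no array above background, and the median log2 fold change was 0.14. CDH1 (E-cadherin) averaged 4.62 in SY5Y-TR1 and 4.40 in SH-SY5Y, and EPCAM averaged 5.57 in SY5Y-TR1 and 4.89 in SH-SY5Y, both under background. Genes such as MUC1, LSR and CRB3 were above background on all 6 arrays, although the LSR means lay within the range of the unrelated-tissue genes. The brightest were TJP1, a tight junction scaffold, at 11.22 in SY5Y-TR1 and 10.94 in SH-SY5Y, and CXADR, a junctional adhesion receptor, at 9.02 in SY5Y-TR1 and 9.53 in SH-SY5Y. Of 14 epithelial transcription and splicing regulators, 1 was called lower and 9 had no array above background. GRHL1, a grainyhead factor of epidermis, was at 4.55, 4.16 and 4.50 in SY5Y-TR1 cells, against 5.91, 5.85 and 5.92 in SH-SY5Y cells, at least 1.17-fold lower (log2 fold change -1.49, limma adjusted p = 1.62e-05). The SH-SY5Y values lay within the range of the unrelated-tissue genes. The other GRHL1 probe set was not called, with a log2 fold change of -0.34. The regulators GRHL2, ESRP1 and OVOL2 were all under background. The regulators above background on all 6 arrays were KLF5, which averaged 8.06 in SY5Y-TR1 and 7.65 in SH-SY5Y, OVOL1 and ELF3, and none of these was called.

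**Figure D4:**
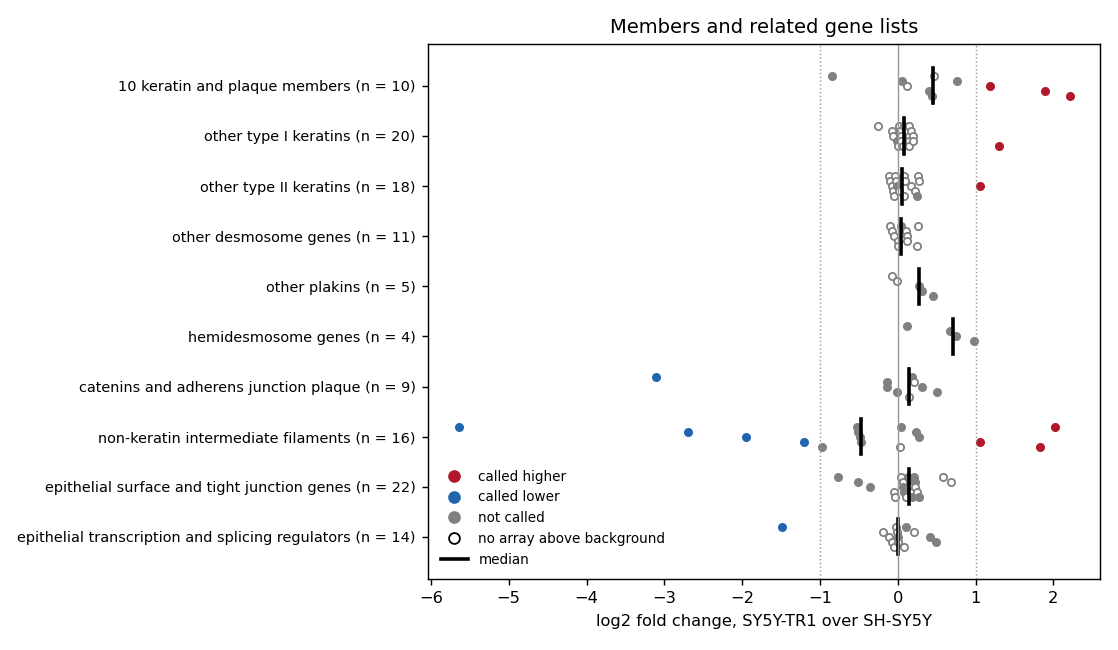
Log2 fold change (SY5Y-TR1 divided by SH-SY5Y) for each gene of the 10 members and of 9 related lists. Red points were called higher, blue points called lower and grey points not called, open points have no array above background and black bars are medians. The desmosome list lies around 0, with open points for 10 of its 11 genes, and the non-keratin intermediate filaments spread to both sides.

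The genes next to each member in RefSeq order, 5 measured on either side, were read in the same fit. Over all genes, 5.36% were called higher and 5.99% lower, and clustering along the chromosome was not tested. Beside KRT8 the keratins KRT76, KRT3, KRT4, KRT79 and KRT78 were all under background, and on the other side only its partner KRT18 was called. Beside KRT18, 2 of 10 neighbours were called higher, KRT8 and IGFBP6, a binding protein of insulin-like growth factors, which averaged 9.72 in SY5Y-TR1 and 7.88 in SH-SY5Y. TNS2, encoding a focal adhesion protein, lies between KRT18 and IGFBP6 and was not called, with a log2 fold change of 0.98. Around PKP2, 3 of 10 neighbours were called lower, FGD4, KIF21A and ABCD2. DSP had 1 neighbour called lower (BMP6), PKP4 had 1 called higher (CCDC148, next to it), KRT7 had 1 called higher (KRT80) and KRT19 had 1 called higher (KRT15). None of the 10 neighbours of KRT10, JUP or PLEC was called.

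Markers of other cell types were read as whole lists. Noradrenergic neuroblast markers were called lower in SY5Y-TR1 for 12 of 16, and all 16 had a negative log2 fold change. Their summed linear signal was 5243 to 5472 on SY5Y-TR1 arrays and 34902 to 35903 on SH-SY5Y arrays. Keratinocyte markers, among them the member KRT10, had 1 of 11 called higher (KRT15) and 8 with no array above background, KRT5, KRT14 and KRT1 included. Their sums were 3602 to 3701 on SY5Y-TR1 arrays and 2769 to 2968 on SH-SY5Y arrays. KRT10 made up most of these sums, which without it overlapped, at 541 to 585 on SY5Y-TR1 arrays and 471 to 594 on SH-SY5Y arrays. Mesothelial markers, from a tissue that carries KRT8 and KRT18, had 1 of 9 called higher and 6 with no array above background, among them MSLN. Their sums were 1279 to 1398 on SY5Y-TR1 arrays and 267 to 304 on SH-SY5Y arrays. The 1 called was WT1, a transcription factor of mesothelium and kidney, which averaged 10.02 in SY5Y-TR1 and 3.71 in SH-SY5Y. Without WT1 the sums overlapped, at 282 to 286 on SY5Y-TR1 arrays and 256 to 286 on SH-SY5Y arrays. Fibroblast markers had 5 of 12 called higher and 3 called lower, with sums of 32312 to 35792 on SY5Y-TR1 arrays and 14464 to 15166 on SH-SY5Y arrays. The 5 were COL1A1, COL6A3, PDGFRB, FAP and THY1, and the 3 were DCN, LUM and PDGFRA. The collagen genes COL1A1, COL3A1 and COL6A3 made up most of the SY5Y-TR1 sums, so the sums do not speak for the whole list. Endothelial markers had 1 of 10 called higher, and blood cell (7 genes) and Schwann cell (7 genes) markers had 0 called. The part of these cell type markers in the keratin and desmoplakin values was not tested.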

How the data were processed

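Total RNA of SY5Y-TR1 and SH-SY5Y cells, 3 samples of each line by their labels, was measured with the Affymetrix U133 Plus 2.0 design. The values used are the log2 signals that the authors deposited after RMA, for which their processing notes name Affymetrix Expression Console (version not given in the sources used here), so background correction and summarization could not be varied, and precision is limited by the number of arrays. After 62 control probe sets were left out, 54613 probe sets were tested, of which 41091 carried 1 gene symbol in the platform annotation, checked against RefSeq (GRCh38.p14). Each gene was read from its brightest probe set over the 6 arrays. The comparison of lines used lmFit and eBayes of limma 3.58.1, with no block, in R 4.3.3, tested on simulated data first, and called at a Benjamini-Hochberg adjusted p under 0.05 over all genes and at least 2-fold. Where all arrays of the dimmer line were at or under background, the fold is the brighter mean over that level.

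The members and lists were chosen with earlier results of these data known. Named genes are the 10 members, up to 3 called genes in each direction of a related list, taken by size of change, or its 2 brightest genes where none was called, and VIM. Other names, such as CTNNA1, NEFH, CDH1, EPCAM, KLF5, WT1 and the neighbours, were added after their values were seen. Alternatives covered the probe set rule, shared-sequence probe sets, scaling, background, thresholds, the methods' t-test, a replicate block and leaving out each array.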

Additional observations from a re-analysis of the deposited data

How the results depend on the processing

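The count of members called higher was 3, of members called lower 0 and of member probe sets called 4 without each array in turn and with the replicate number as a block, which called 2245 genes as the fit without it did. That equality says nothing about stability, since all 2245 genes past 2-fold also passed the adjusted p with the block, with a trended and robust variance and with the methods' t-test (largest adjusted p 0.0117, 0.0051 and 0.0311), so the fold limit alone set the count. Leaving out an array called between 2236 and 2281 genes. Same-numbered arrays did not deviate together (residual correlations 0.000198 to 0.0299, against -0.0700 to 0.0470 for other numbers). These correlations thus showed no pairing by number, but with 3 arrays for each line they cannot exclude one. KRT8 and KRT18 were called under all 18 alternatives that measured them, with log2 fold changes of 1.71 to 2.01 and 1.00 to 1.21.

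By adjusted p alone, 7 members were higher and 1 was lower, where 10447 genes (52.8% of all) passed. Of the 22 member probe sets 16 passed, where 22148 of all 54613 probe sets did. Without shared-sequence probe sets 1 member was called higher and 1 probe set was called, since KRT8, KRT18, KRT10, JUP and PKP2 were then not measured. Values raised to background, or only genes above it, left 2 member probe sets called, as did the 75th percentile level, which was added after seeing the data and gave DSP a log2 fold change of 0.67. Centring on 23 housekeeping genes moved every gene by -0.18 and the median of all genes to -0.14, which made PKP4 (-1.03) the 1 member called lower. It changed the split over all genes to 821 higher and 1476 lower (35.7% higher), against 1060 and 1185 (47.2%) as deposited. The sign turned for KRT7 (-0.12), PKP2 (-0.056) and PKP3 (-0.13) with that centring, for PKP2 (-0.85) and DSG3 (0.0073) with the mean of all probe sets, and for MACF1 (-0.067) without shared-sequence probe sets. Without each array in turn the log2 fold change ran from -0.043 to 0.21 for KRT7, from -0.0071 to 0.28 for PKP2 and from -0.076 to 0.063 for DSG3. KRT80 was not called with housekeeping centring (0.88) or without SH-SY5Y replicate 2 (0.96), and ITGA6 was called without SH-SY5Y replicate 3 (1.05) or SY5Y-TR1 replicate 1 (1.01). With the mean of all probe sets LMNA (0.82) and GRHL1 (-0.92) were not called and ITGA6 (1.09) was. LMNA (0.88) was not called with housekeeping centring, and GRHL1 (-0.22) and KRT15 (0.65) were not called with values raised to background. Signals under 5.67 limit DSP, KRT19 and PKP2 most.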
